A study of Danio rerio with 5 samples.

Results

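Splicing removes introns from pre-mRNA, and it is carried out by the spliceosome, a particle built anew on each intron from small nuclear ribonucleoproteins (snRNPs) and associated proteins. The genes described here are 102 of the 22656 genes of the deposited count table. They were taken by the start of their symbol alone: sf3a or sf3b, snrp or snrnp, srsf, hnrn, prpf, u2af, lsm followed by a digit, srrm, tra2, khdrbs and ptbp. By the known role of each product they fell into 38 snRNP core genes, 10 other spliceosome genes, 18 SR genes, 28 hnRNP genes and 8 LSm genes whose products work outside the spliceosome. The class called hnRNP here holds 20 genes named hnRNP, 5 ptbp genes and 3 khdrbs genes of the Sam68-like STAR proteins. Its sums and medians include them all.

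RNA-seq libraries came from zebrafish embryos of the Tübingen strain at the mid-blastula transition (MBT, sphere stage, 4 hours post-fertilization, hpf; 3 libraries, called A, B and C) and after it (post-MBT, 5.3 hpf; 2 libraries, A and B). Both groups were untreated embryos raised at the same temperature, and chorion and yolk were removed before extraction, so the RNA is that of whole deyolked embryos and not of one cell type. Total RNA was copied with random primers, so RNA without a poly(A) tail could also be counted. The labels do not say whether libraries of a group came from separate clutches, so p-values cover only the spread among these libraries and that spread may be technical.

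At this transition the embryo passes from RNA that the mother stored in the egg to RNA that its own genome makes, and in zebrafish the earliest zygotic transcripts are known to come largely from short genes with few or no introns. The splicing machinery at that time is maternal, and its genes are then transcribed in the embryo too. U1 and U2 snRNPs mark the ends of an intron, U2AF and the SF3A and SF3B complexes place U2 at the branch point, and the U4/U6.U5 tri-snRNP brings in the parts that form the catalytic centre. SR proteins and hnRNP proteins bind the pre-mRNA itself, and broadly act as activators and repressors of exon choice. The counts cannot tell whether an RNA was maternal or zygotic, nor can bulk samples tell more RNA per cell from more cells of a kind.

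The libraries held between 2488983 and 3701401 counts. Genes of the mitochondrial genome took from 43.0% to 51.5% of them, with 46.6%, 43.0% and 50.6% in MBT A to C and 51.3% and 51.5% in post-MBT A and B. Known zygotic patterning genes summed to between 144 and 174 CPM (counts scaled to a common library size) at the MBT and to 1682 and 1594 CPM post-MBT. Known maternal egg genes went the other way in sum, from between 336 and 373 CPM to 74.4 and 81.0 CPM, with 4 of 5 called lower. The egg gene zar1 had no call, and its libraries overlapped between stages. The directions of both sums are those of the stage labels. Markers of the enveloping layer, the outer epithelium of the embryo, also moved with stage, with all 4 called higher and sums of 77.6, 94.8 and 79.4 CPM against 801 and 800 CPM. Markers of the yolk syncytial layer summed to between 15.9 and 17.8 CPM at the MBT and to 55.4 and 68.4 CPM post-MBT, with 3 of 4 called higher and 1 lower. Germ line markers summed to 108, 116 and 111 CPM and then to 90.1 and 91.8 CPM, with 2 of 3 called lower. The 3 markers of differentiated tissue summed to at most 2.89 CPM in every library. The part of these cell layers in the splicing gene results was not tested.

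As a group the splicing genes rose. They took 1.95%, 1.91% and 1.92% of the counts outside the mitochondrial genome in MBT A, B and C, and 3.22% and 3.12% in post-MBT A and B. Levels below are CPM of the genes tested, scaled by the TMM method. A fold change is the log2 of post-MBT over MBT, with a standard error (SE) derived from its test statistic. On that scale the summed level of the 102 genes was 9355, 9097 and 9190 CPM at the MBT and 18660 and 18049 CPM post-MBT, a ratio of 1.99. The stages did not overlap.

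Of the 102 genes, 93 passed the filter on low counts and were tested among 12007 genes with edgeR's quasi-likelihood test. At a Benjamini-Hochberg adjusted p under 0.05, 78 were higher post-MBT, 5 were lower and 10 had no call. Over all tested genes, 31.0% were called higher and 31.8% lower. The median log2 fold change of the 93 genes was 0.86, against -0.04 for all tested genes. A rise of at least 2-fold was called for 36 of the 93 genes, and for 16.0% of all tested genes. In 79 of the 93, both post-MBT libraries lay above all MBT libraries, which was so for 36.3% of all tested genes. Scaling by library totals in place of TMM moved the median of all tested genes to -0.46 and that of the splicing genes to 0.45, with 51 called higher and 8 lower, where 18.1% and 46.4% of all genes were. DESeq2 called 70 of them higher and 4 lower, against 20.3% and 17.2% of the genes it tested.

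The rise was seen in each class of the spliceosome and its regulators, while the LSm genes that work elsewhere moved both ways. Within the snRNP core, the LSm genes of the U6 ring also moved both ways, with 1 higher and 1 lower of 3 tested. All 16 tested SR genes were called higher, with a median of 1.07. Of 25 tested hnRNP genes, 22 were called higher and none lower, with a median of 1.01. The snRNP core had 29 higher and 1 lower of 35, with a median of 0.72, and the other spliceosome genes had 9 higher and none lower of 10, with a median of 0.70. The LSm genes outside the spliceosome had 2 higher and 4 lower of 7, with a median of -0.51. In the SR, hnRNP and other spliceosome classes edgeR also gave 0 lower genes at an unadjusted p under 0.05, and DESeq2 and limma called 0 lower. Library totals called 1 hnRNP gene and 1 other spliceosome gene lower, and leaving out MBT B gave 1 lower hnRNP gene. Under library totals each median kept its sign, at 0.66 for SR, 0.60 for hnRNP, 0.31 for snRNP core, 0.29 for other spliceosome and -0.92 for the outside LSm genes.

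**Figure D1:**
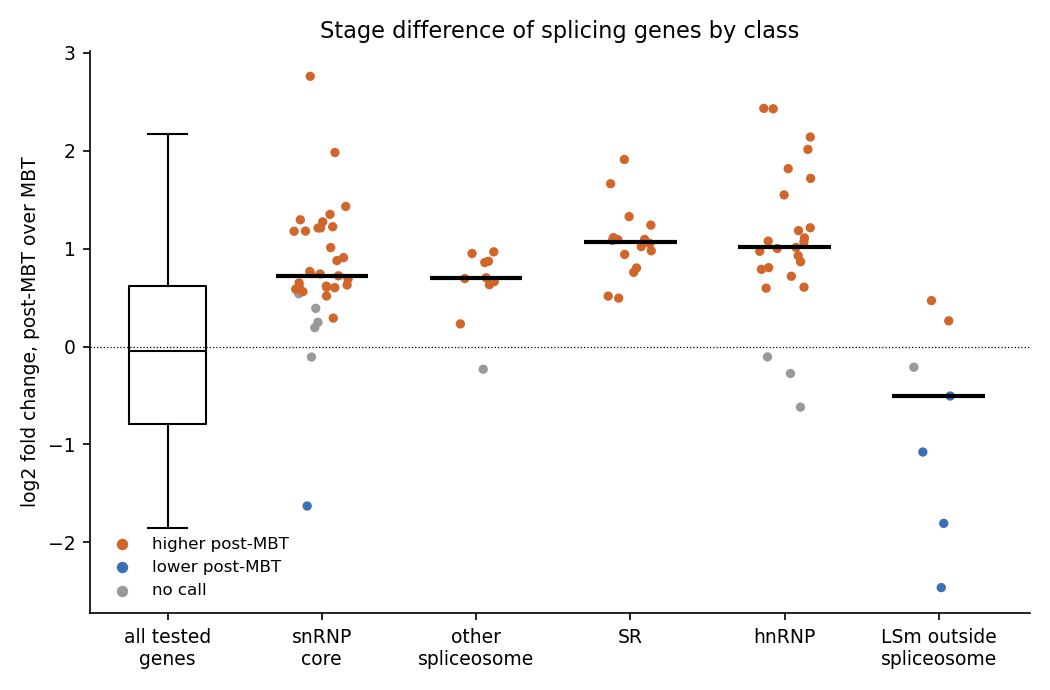
Log2 fold change (post-MBT over MBT) of every tested splicing gene by class, one point per gene coloured by its edgeR call, with a line at the class median. The box shows the quartiles of all 12007 tested genes with whiskers at the 5th and 95th percentiles. The 16 SR genes all lie above 0, while 5 of the 7 LSm genes outside the spliceosome lie below it.

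In summed level the hnRNP genes held the most RNA, at 4293, 4269 and 4237 CPM at the MBT and 9612 and 9248 CPM post-MBT, a ratio of 2.21. The SR sum went from 1557, 1400 and 1488 CPM to 3055 and 2964 CPM, a ratio of 2.03. For the snRNP core the sums were 2293, 2247 and 2237 CPM and then 4238 and 4149 CPM, a ratio of 1.86. Every post-MBT library stood above every MBT library in these classes.

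The other spliceosome genes summed to 754, 725 and 783 CPM at the MBT and to 1296 and 1245 CPM post-MBT, a ratio of 1.68. The outside LSm genes summed to 458, 456 and 446 CPM and to 459 and 443 CPM, so their stages overlapped. Within a library, where scaling cancels, the hnRNP sum was 1.89 ± 0.0144 times the snRNP core sum at the MBT (SD, n = 3) and 2.25 ± 0.0274 times post-MBT (SD, n = 2). The SR sum was 0.656 ± 0.0291 and 0.718 ± 0.00453 times the snRNP core sum. Neither ratio overlapped between stages. With 3 libraries against 2 an exact permutation test cannot give a p below 0.1, so none is given for these sums.

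**Figure D2:**
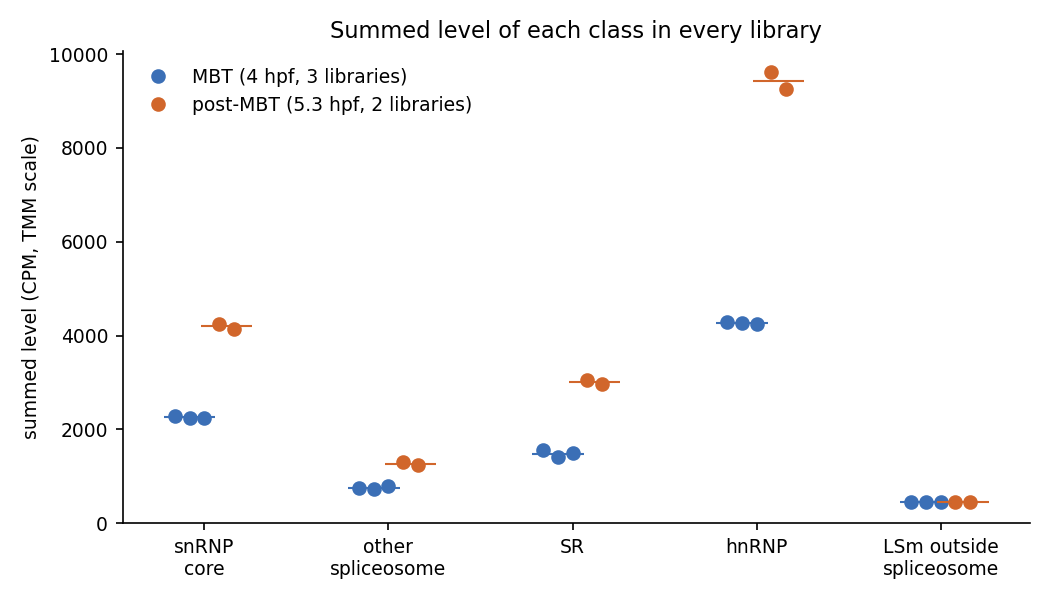
Summed level (CPM on the TMM scale, axis from 0) of each class in each of the 5 libraries, one point per library, with lines at the stage means. The hnRNP sum stands between 4237 and 4293 CPM in the MBT libraries and at 9248 CPM or above post-MBT, and the LSm genes outside the spliceosome stay between 443 and 459 CPM.

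In the snRNP core, all 4 U5 particle genes taken by symbol were called higher, with a median 2.14-fold rise. Counts by particle here and below leave out genes of a particle that carry other symbols. Under library totals 3 were called higher, with a median log2 fold change of 0.68. The U5 particle holds the exon ends at the catalytic centre. The snrnp200 gene encodes the helicase that unwinds U4 from U6, and lies on chromosome 8 (31022421 to 31044416, minus strand, in the D_rerio_Sep_2014 build of the files). Its level was 92.7, 104 and 113 CPM in MBT A, B and C and 265 and 294 CPM in post-MBT A and B. Both post-MBT libraries were above all others, and the log2 fold change was 1.43 ± 0.09 (SE; edgeR adjusted p = 2.33e-25).

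The prpf8 gene encodes the large scaffold protein at the centre of the spliceosome. It measured 529, 509 and 494 CPM and then 1027 and 1031 CPM, with a log2 fold change of 1.01 ± 0.07 (edgeR adjusted p = 8.3e-24). The stages did not overlap, and the replicates of each stage lay close together. The U5 WD-repeat gene snrnp40 rose by 1.18 on the log2 scale and prpf6, which bridges U5 and U4/U6, by 0.65. The prpf6 call was lost under library totals, at 0.24 (edgeR adjusted p = 0.172).

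The U2 side rose as well. All 3 SF3A genes and 5 of 6 SF3B genes were called higher, with medians of 0.62 and 0.91. Under library totals the calls fell to 1 of 3 and 3 of 6, with medians of 0.21 and 0.49. The sf3b1 gene encodes the largest SF3B subunit, which clamps the branch point helix. It measured 131, 131 and 119 CPM at the MBT and 292 and 297 CPM post-MBT, a log2 fold change of 1.21 ± 0.08 (edgeR adjusted p = 1.11e-22). The sf3b4 gene, whose product contacts the RNA near the branch point, gave 124, 109 and 126 CPM and then 309 and 275 CPM. Its log2 fold change was 1.29 ± 0.09 (edgeR adjusted p = 1.63e-23), and neither gene overlapped between stages. Subunits of the complex differed in size of change, from sf3b4 at 1.29 and sf3b6 at 1.27 to sf3b3 at 0.60 and sf3b2 at 0.56. The small subunit sf3b5 had few counts (9, 23 and 9, then 21 and 10) and no call.

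Of the U1 genes, which recognise the start of the intron, all 3 were called higher, and 2 under library totals. The U1-70K gene snrnp70 measured 96.7, 103 and 98.2 CPM and then 239 and 211 CPM, a log2 fold change of 1.18 ± 0.09 (edgeR adjusted p = 2.95e-20). Its partners snrpa and snrpc rose by 0.69 and 0.75. The U2 genes snrpb2 and snrpa1, whose products bind each other on U2 RNA, rose by 0.74 and 0.52, and under library totals snrpa1 lost its call. Per kilobase of exon, snrpb2 was the snRNP core gene with the highest level at both stages, followed by sf3b4 and prpf8.

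The Sm proteins form the ring that loads on U1, U2, U4 and U5 RNA. Of 8 tested Sm genes 7 were called higher, with a median 1.99-fold rise, and snrpb missed the threshold at 0.25 ± 0.12 (edgeR adjusted p = 0.0577) although both its post-MBT libraries were above the others. The genes of single ring subunits were thinly counted: snrpg had 3, 1 and 2 counts at the MBT and 12 and 13 post-MBT. Its fitted log2 fold change of 2.76 ± 0.64 (edgeR adjusted p = 1.38e-04) was the highest of all 93 and one of the least precise. For snrpd2 there were 14, 14 and 11 counts and then 39 and 51, a log2 fold change of 1.98 ± 0.30 (edgeR adjusted p = 2.39e-08). The other single subunits called higher were snrpe at 1.35, snrpf at 1.22, snrpd3l at 0.77, snrpd3 at 0.63 and snrpd1 at 0.61. In snrpd1 the libraries overlapped, with 14.1, 17.7 and 17.8 CPM and then 32.8 and 17.1 CPM, and without post-MBT A its log2 fold change was 0.041 (edgeR adjusted p = 0.92). The snrpd3 call was also lost without post-MBT A, at 0.38 (edgeR adjusted p = 0.128), as were those of snrpd3l at 0.52 (edgeR adjusted p = 0.0964) and snrpf at 1.097 (edgeR adjusted p = 0.226). Under library totals 3 of the 8 Sm genes were called higher, where 18.1% of all tested genes were. Sm genes are short. With an offset for exonic length only 3 of the 8 were called higher, where 32.8% of all tested genes were. Their median log2 fold change was then 0.53.

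The U4/U6 and tri-snRNP genes had 3 of 4 called higher and a median of 0.44, with 1 called under library totals. They ranged from prpf3 at 0.88 and prpf31 at 0.59 to prpf4 at 0.29 and snrnp27 at 0.19, the last with no call. The ring of LSm2 to LSm8 on U6 was poorly covered, with lsm6 and lsm8 under the filter, lsm7 called higher at 0.72 and lsm3 without a call at 0.54. The lsm4 gene, of the same ring, was the sole core gene called lower. It had 10, 14 and 14 counts at the MBT and 3 and 4 post-MBT, a log2 fold change of -1.63 ± 0.59 (edgeR adjusted p = 0.0128), and the call was lost with DESeq2 or without post-MBT A. The U11/U12 genes serve the minor class of introns: snrnp48 was called higher at 0.91, snrnp35 had no call and snrnp25 was under the filter. Leaving out 1 library ended the calls of prpf4 (0.27 without post-MBT B, edgeR adjusted p = 0.159), lsm7 (0.50 without post-MBT B, edgeR adjusted p = 0.296) and snrnp48 (0.88 without post-MBT B, edgeR adjusted p = 0.0900). The model of snrnp35 lies inside the span of sbno1 on the other strand, and the counting is not stated to use strand, so its reads cannot be told apart from that gene's.

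Among the other spliceosome genes, the 2 copies of the large U2AF subunit, which binds the polypyrimidine tract before the 3′ splice site, moved in step. The u2af2a copy measured 147, 142 and 141 CPM and then 281 and 278 CPM, a log2 fold change of 0.97 ± 0.08 (edgeR adjusted p = 6.22e-18). The u2af2b copy measured 129, 119 and 125 CPM and then 236 and 243 CPM, with 0.95 ± 0.08 (edgeR adjusted p = 1.06e-16). Per kilobase of exon the first was between 1.01 and 1.07 times the second in all 5 libraries. The small subunit u2af1 rose by 0.70, a call lost under library totals and with DESeq2. The kinase gene prpf4bb rose by 0.86, and the U1-associated gene prpf39 by 0.87. The second-step factor prpf18 had no call, at -0.23 ± 0.17 (edgeR adjusted p = 0.229), with both post-MBT libraries below the others. Under library totals prpf18 was called lower, at -0.65 (edgeR adjusted p = 0.00227).

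SR proteins carry serine-arginine repeats, bind exonic enhancers and draw in U1 and U2AF. The SR gene with the smallest p was srsf5a, on chromosome 13 (36404398 to 36409317, minus strand). Its level was 74.7, 64.9 and 65.5 CPM at the MBT and 212 and 219 CPM post-MBT, with no overlap and a log2 fold change of 1.66 ± 0.09 (edgeR adjusted p = 5.07e-27). The next was srsf4, with 79.0, 74.1 and 84.0 CPM and then 194 and 201 CPM, and 1.33 ± 0.09 (edgeR adjusted p = 8.64e-22). These libraries also fell into separate ranges by stage.

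The most abundant SR gene per kilobase was srsf1a, a copy of the SF2/ASF gene, at 132 ± 1.24 CPM per kilobase at the MBT (SD, n = 3) and 260 ± 19.5 post-MBT (SD, n = 2). Its level was 283, 288 and 287 CPM and then 594 and 534 CPM, a log2 fold change of 0.98 ± 0.07 (edgeR adjusted p = 4.25e-21). Its MBT libraries lay within a narrow range, and both post-MBT libraries were well above it. The 16 tested SR genes ranged from 0.49 to 1.91. Several lay close to each other: srsf2a at 1.05, srsf7a at 1.09, srsf11 at 1.09, and the SR-like regulators tra2a and tra2b at 1.11 and 1.08. The nuclear matrix genes srrm1 and srrm2 rose by 0.94 and 0.80. The smallest rises were in srsf6a, at 0.49 ± 0.10, and srsf1b, at 0.52 ± 0.18, and both calls were lost under library totals. Without post-MBT B srsf1b stood at 0.23 (edgeR adjusted p = 0.442), and DESeq2 did not call it either. The srsf9 gene rose by 0.76, a call lost under library totals at 0.35 (edgeR adjusted p = 0.0699). The srsf5b gene rose by 1.02, srsf6b by 1.24 and srsf2b, from a low 5.05, 3.67 and 7.66 CPM to 20.3 and 19.3 CPM, by 1.91. The srrm4 gene, a regulator of neural microexons, was under the filter with between 1 and 16 counts per library, as was srsf7b with at most 4.

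The hnRNP genes spanned a range from 2.43 to -0.62. The polypyrimidine tract binding proteins, which repress exons by binding pyrimidine-rich RNA, were the group with the highest median, at 1.55, and all 5 were called higher. The ptbp1a gene lies on chromosome 2 (26632673 to 26644878, plus strand). It measured 57.0, 48.6 and 61.7 CPM at the MBT and 308 and 285 CPM post-MBT. All MBT libraries were far below both post-MBT libraries, with a log2 fold change of 2.43 ± 0.09 (edgeR adjusted p = 1.73e-37).

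The other copy, ptbp1b, started higher, at 233, 246 and 222 CPM, and reached 689 and 682 CPM, a log2 fold change of 1.55 ± 0.07 (edgeR adjusted p = 7.07e-33). The ptbp2b gene, a copy of the gene known in mammals as neural PTB, measured 20.6, 22.0 and 22.3 CPM and then 99.8 and 91.4 CPM. Its log2 fold change was 2.14 ± 0.13 (edgeR adjusted p = 9.27e-25). Its copy ptbp2a rose by 1.07 and ptbp3 by 1.01, and none of the 5 genes overlapped between stages. Under library totals all 5 were still called higher, with a median of 1.14.

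The hnRNP A0 genes were the other leading set. They are the only 3 of the 102 genes that the deposited models give as a single exon, and all lie on chromosome 14. The hnrnpa0b gene (38505417 to 38507122, plus strand) measured 278, 291 and 281 CPM at the MBT and 1200 and 1091 CPM post-MBT. Its log2 fold change of 2.01 ± 0.07 had the smallest adjusted p of all the splicing genes (edgeR, 1.83e-41). The stages were separated by several times the spread within either.

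On the same strand and 2063 bases further on lies hnrnpa0l (38509186 to 38510619), with 707, 731 and 707 CPM and then 1587 and 1431 CPM. Its log2 fold change was 1.08 ± 0.06 (edgeR adjusted p = 6.38e-26), smaller than that of its neighbour. Per kilobase hnrnpa0l had the highest level of the 102 genes at both stages, at 499 ± 9.43 (SD, n = 3) and 1052 ± 76.8 CPM per kilobase (SD, n = 2). At hnrnpa0b the level per kilobase was 166 ± 4.02 and then 672 ± 45.2. In shares, hnrnpa0b went from 6.64% to 12.1% of the hnRNP sum while hnrnpa0l went from 16.8% to 16.0%. The remaining gene, hnrnpa0a, measured 49.1, 55.1 and 47.4 CPM and then 185 and 174 CPM, a log2 fold change of 1.82 ± 0.10 (edgeR adjusted p = 2.91e-27). No source used here states how reads that match several copies were counted, so the split between copies is uncertain.

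Other hnRNP genes with large changes were hnrnpul1, at 14.4, 13.996 and 14.6 CPM and then 72.8 and 82.5 CPM (2.43 ± 0.15), and hnrnpd, the AUF1 gene, at 14.1, 6.65 and 11.1 CPM and then 34.1 and 32.7 CPM (1.72 ± 0.21). Both sets of libraries were separated by stage. Smaller rises in this class were those of khdrbs1a, the Sam68 gene, by 0.93, hnrnpub by 1.11, hnrnpabb by 0.72, hnrnpa1b by 0.60 and hnrnpa1a by 0.61. Under library totals the calls of hnrnpa1b and hnrnpa1a were lost. The deposited model of hnrnpa1a spans 5 other genes, which hold at most 58 counts each over the 5 libraries. The hnRNP K gene hnrnpk rose by 0.97, hnrnpm by 0.79, hnrnpl2 by 1.001, hnrnpaba by 1.21 and khdrbs1b by 1.18. The classical hnRNP genes hnrnpc, hnrnpr and hnrnph1 had no call, at -0.28 ± 0.16, -0.11 ± 0.22 and -0.62 ± 0.53. In all 3 the post-MBT libraries lay below the MBT libraries, which was so for 37.6% of all tested genes. For hnrnpr the gap was small, with 14.6 CPM in MBT C against 14.5 CPM in both post-MBT libraries. The hnrnph1 gene had only 8, 14 and 10 counts at the MBT and 7 and 5 post-MBT. Under library totals hnrnpc was called lower (adjusted p = 5.5e-04 by edgeR, log2 fold change -0.69).

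**Figure D3:**
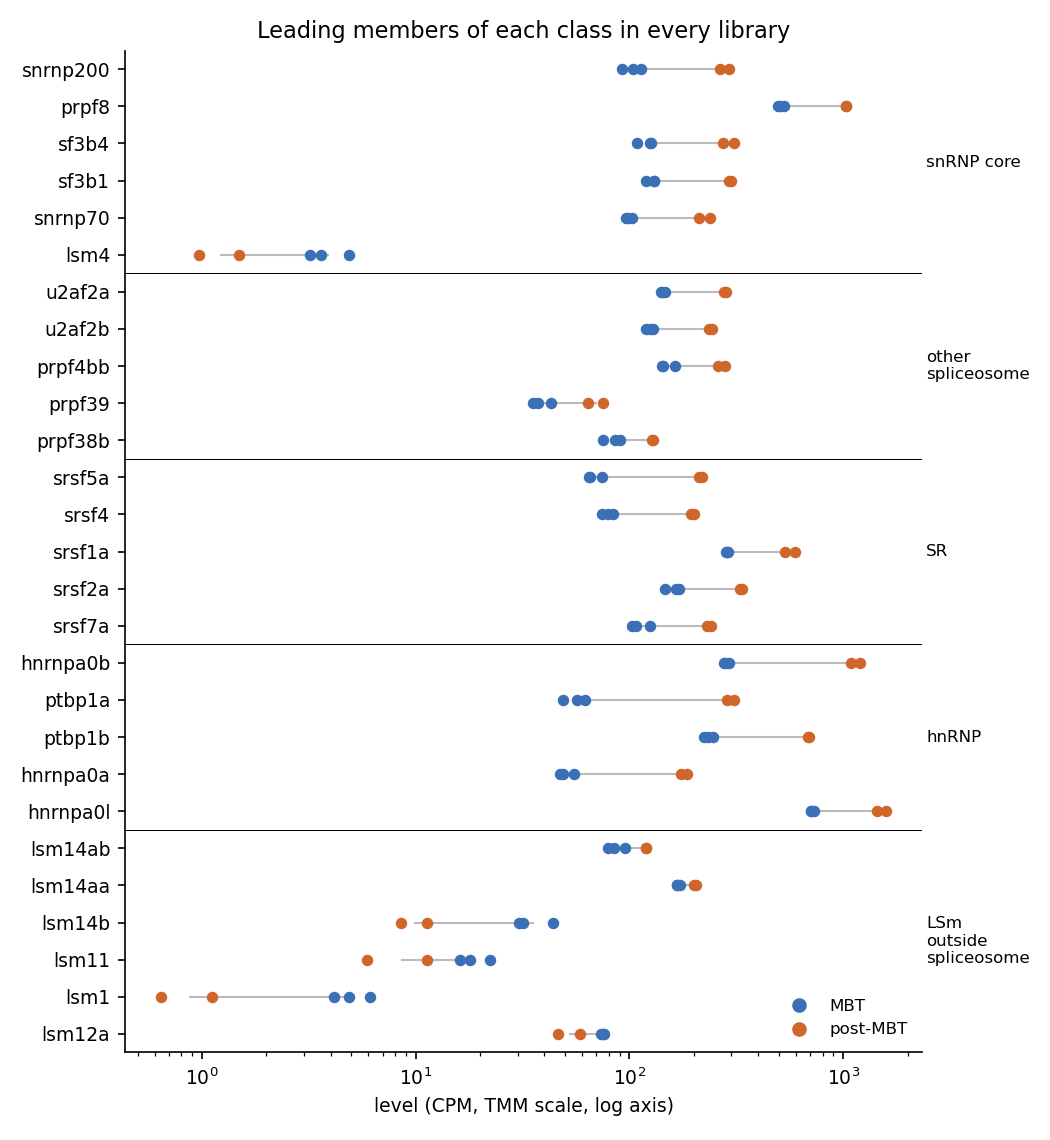
Level (CPM on the TMM scale, log axis) of the called genes with the smallest adjusted p of each class, up to 5 in each direction, one point per library and a grey line between the stage means. The 3 MBT and 2 post-MBT libraries fall into separate ranges for every gene drawn, with hnrnpa0b going from about 280 CPM to 1091 CPM or more, and lsm4, lsm14b, lsm11, lsm1 and lsm12a to the left of their MBT values.

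Most of the genes called lower were LSm genes outside the spliceosome, 4 of the 5. The lsm14b gene encodes a protein that in mouse oocytes belongs to particles of stored mRNA. It measured 44.0, 31.9 and 30.3 CPM at the MBT and 11.3 and 8.55 CPM post-MBT, so it fell by 1.81 ± 0.21 on the log2 scale (edgeR adjusted p = 1.05e-11). The lsm1 gene, of the cytoplasmic ring that takes part in mRNA decay, had 17, 18 and 14 counts and then 2 and 3, and fell by 2.46 ± 0.60 (edgeR adjusted p = 2.35e-04). The U7 snRNP gene lsm11, needed for histone mRNA ends, fell by 1.08 ± 0.25 (edgeR adjusted p = 1.55e-04), and none of the 3 overlapped between stages.

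Not every gene of the family fell. The lsm14b paralogs lsm14aa and lsm14ab were called higher, at 0.26 ± 0.08 and 0.47 ± 0.10, and both calls were lost under library totals, where lsm14aa turned to -0.15. The lsm12a gene fell by 0.51 ± 0.12 with adjusted p = 2.51e-04 by edgeR, a call lost without post-MBT B, and lsm12b had no call at -0.21 ± 0.13. Over all tested genes, 37.6% had both post-MBT libraries below all MBT libraries, against 4 of these 7.

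Zebrafish kept 2 copies of many splicing genes after its ancestral genome duplication, and 18 such pairs or close copies were compared by the ratio of their levels per kilobase within each library. In 17 pairs both copies had a ratio, and in none were the copies called in opposite directions. The largest shift among pairs with both copies called was in ptbp2a over ptbp2b, at 2.39, 2.24 and 2.41 at the MBT and 1.03 and 1.20 post-MBT. The ratio of ptbp1a over ptbp1b was 0.248, 0.200 and 0.281 and then 0.454 and 0.424. In both, the copy with less RNA at the MBT rose more.

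The pattern was not shared by all pairs. For srsf5a over srsf5b the ratio was 5.85, 5.83 and 4.23 and then 8.55 and 7.89, so the more abundant copy rose more. For srsf6a over srsf6b it went from 3.22, 4.26 and 3.47 to 2.19 in both post-MBT libraries, and for srsf2a over srsf2b from 38.5, 45.7 and 24.6 to 18.8 and 19.4. The hnrnpaba copy went from 0.501, 0.399 and 0.458 of hnrnpabb to 0.634 in both. In the srsf6, srsf2, hnrnpab and khdrbs1 pairs, as in the ptbp pairs, the copy with less RNA at the MBT rose more. The reverse held, as for srsf5, in pairs that included srsf1, hnrnpu, hnrnpa0 and prpf4b. There the scarcer copy rose by 0.52, 0.81, 1.82 and 0.66 and the other by 0.98, 1.11, 2.01 and 0.86. The pairs thus shared no common direction. The ratio of hnrnpa1a over hnrnpa1b overlapped between stages, with log2 fold changes of 0.61 and 0.60 for the copies. Exact two-sided permutation tests over the 5 libraries gave p = 0.1 at the least, the smallest that 10 splits allow, and 0.213 after adjustment over 17 pairs, so no single shift passed a threshold.

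The ratio of khdrbs1a over khdrbs1b was 3.38, 3.39 and 3.67 at the MBT and 3.003 and 2.81 post-MBT, with the copies at 0.93 and 1.18. For hnrnpua over hnrnpub it was 0.337, 0.412 and 0.392 and then 0.298 and 0.319, and for hnrnpa0a over hnrnpa0b 0.135, 0.144 and 0.129 and then 0.118 and 0.121. In these pairs the stages did not overlap. The ratios of prpf4ba over prpf4bb and of the SmD3 copies snrpd3 over snrpd3l overlapped between stages. For srsf1a over srsf1b the ratio was 18.3, 16.5 and 17.9 and then 31.0 and 18.9, so post-MBT A alone set the size of that shift. Of hnrnph1 and hnrnph1l, the latter rose by 0.87 and held nearly all the RNA, the ratio being at most 0.0339 in any library. The ratio of lsm12a over lsm12b was 0.785, 0.611 and 0.629 and then 0.585 and 0.485, and that of lsm14aa over lsm14ab was 0.830, 0.967 and 1.005 and then 0.801 and 0.812.

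**Figure D4:**
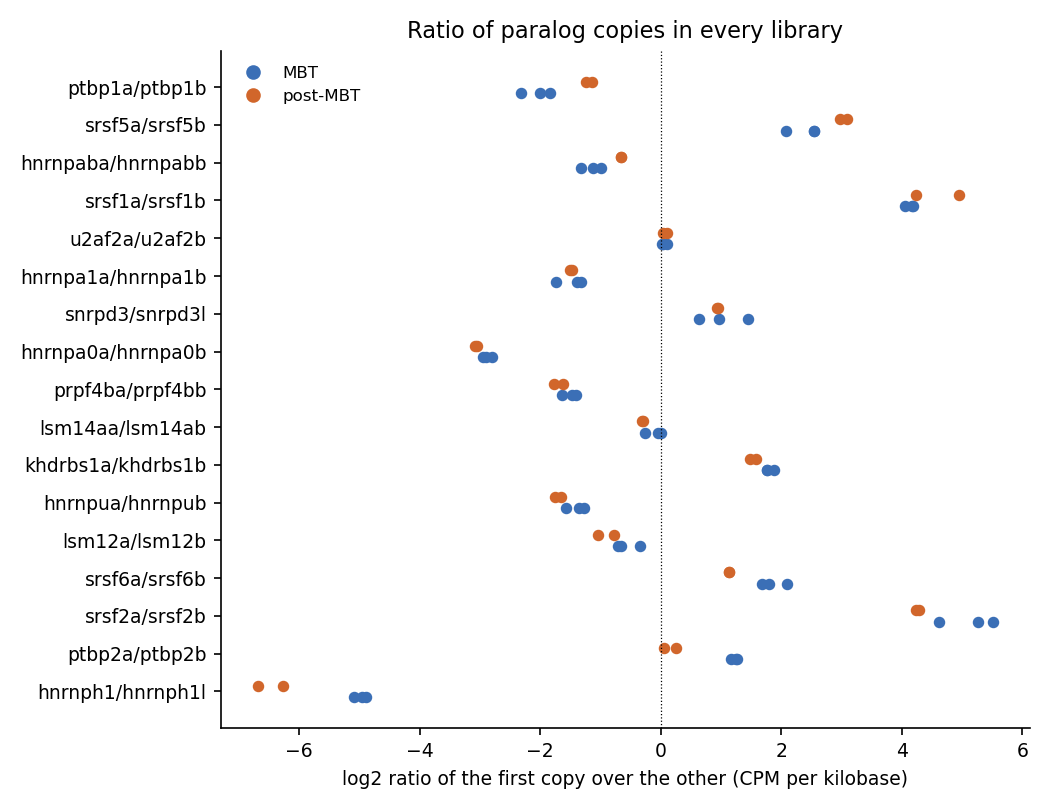
Log2 ratio of the level per kilobase of the first copy over the other in each library for 17 pairs, ordered by the difference between stages. The ratio of ptbp2a over ptbp2b moves from between 2.24 and 2.41 to between 1.03 and 1.20, and u2af2a over u2af2b stays near a ratio of 1 in every library.

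Exonic length moved with the stage difference over the whole table. With tested genes divided into 4 bins of length, the median log2 fold change of a bin's genes was 0.15 in the shortest bin (up to 1646 bases) and -0.17 in the longest (3812 bases or more). The median of the splicing genes lay above that of all genes in each bin. In the shortest bin 23 of 34 were called higher and 3 lower, with a median of 0.66, where 34.0% of all genes were called higher. In the middle bins 20 of 22 and 25 of 27 were called higher, where 30.5% and 30.2% of all genes were. In the same bins 2 and 0 splicing genes were called lower, where 31.1% and 35.1% of all genes were. In the longest bin all 10 were called higher, with a median of 1.01, where 29.4% of all genes were. With an offset for exonic length in the fit, 73 splicing genes were called higher and 6 lower, against 32.8% and 29.2% of all genes.

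**Figure D5:**
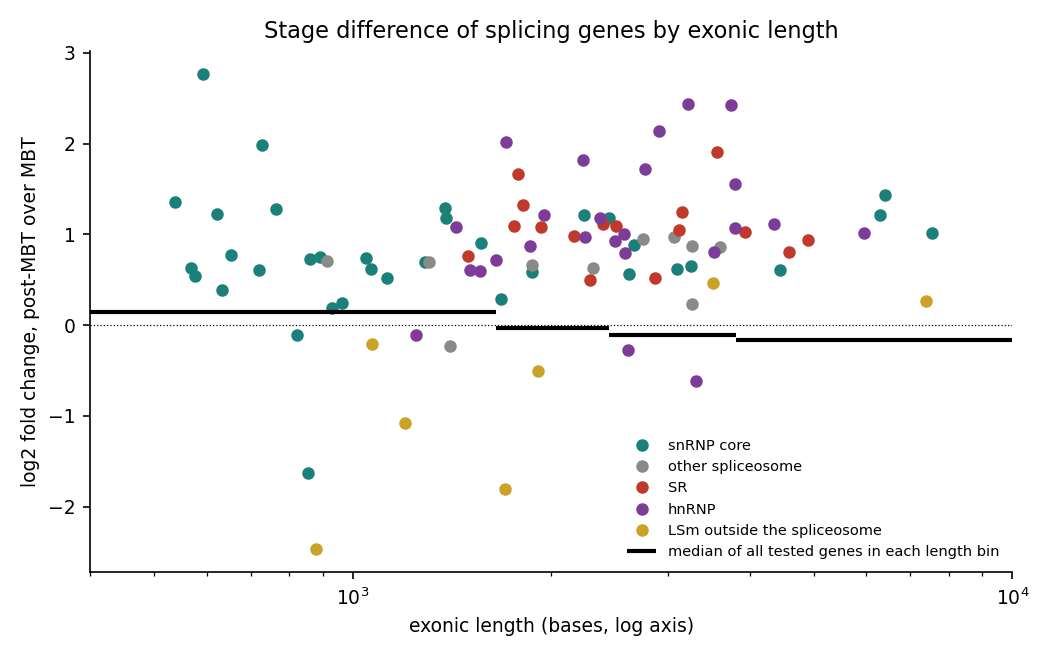
Log2 fold change (post-MBT over MBT) against exonic length (bases, log axis) for each tested splicing gene, coloured by class, with black lines at the median of all tested genes in each of the 4 length bins. The 10 splicing genes in the longest bin all lie above 0, where the median of all genes is -0.17.

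The authors' deposited table also compares exons between stages, giving for a gene the exon with the largest difference and a score (-10 times the log10 of an adjusted chi-square p). As its column description reads, it compares the 2 conditions with each other over exons, and replicates do not enter as such. In the authors' deposited table, 10 of the 102 splicing genes had an exon listed, and 3 had a score past that of p = 0.05 (13.0). Over all 22656 genes 3.60% had an exon listed and 0.393% passed the score, and of the 12007 genes tested here 0.741% passed. The splicing genes that passed had between 188 and 3386 counts per library. The prpf8 gene, with between 1419 and 3190, had no exon listed. The part of count depth in these scores was not tested.

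The highest score was that of khdrbs1a, at 301 in the authors' deposited table. The exon listed there is on chromosome 13 from 44875912 to 44875964, within a gene that spans 44873052 to 44885472 on the minus strand. Its difference in log2 ratio (4 hpf over 5.3 hpf, called the exon ratio here) in the authors' deposited table was 1.08. The whole gene had a log2 ratio of -0.93 there. The exon value is a contrast within the gene and the gene value is a plain ratio between stages, so these are unlike measures. The sign of the exon ratio is read from the column name alone, so which stage holds relatively more of the exon is uncertain. For srsf5a the authors' deposited table gave an exon with a ratio of 1.19 and a score of 45.7, and for srsf6a one with -1.13 and 22.9. The 2 SR genes thus had exon ratios of opposite sign. An exon of ptbp2a reached 11.7 with a ratio of -1.45, just under the threshold.

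The 9 genes that failed the filter on low counts were lsm6, lsm8, snrnp25, srsf7b, srrm4, khdrbs2, hnrnpa3, hnrnph3 and lsm10. The hnrnpa3 gene had 0 counts in every MBT library and 2 and 1 post-MBT. A count of 0 allows up to 3 counts per library, or 1.21, 0.824 and 1.08 CPM of the library totals, so no difference was detectable at this depth. This limit covers counting error only.

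A list of 137 other splicing genes, taken by role and not by name, gave the surroundings. The table holds 125 of them and 118 were tested, with 79 called higher, 9 lower and 30 without a call, and a median of 0.62. Among all tested genes, 31.0% were called higher and 31.8% lower. The RNA helicase gene ddx5 had the smallest p, at 822 ± 43.7 CPM (SD, n = 3) and then 2592 ± 3.52 CPM (SD, n = 2), a log2 fold change of 1.66 ± 0.06 (edgeR adjusted p = 2.39e-38). The paraspeckle gene sfpq rose by 1.89, the quaking gene qkia by 1.31 and ilf2, whose product works with double-stranded RNA binding proteins, by 1.19. No gene was called lower in the groups of the branch point and A complex (11 of 13 higher), the tri-snRNP and B complex (10 of 14), the Prp19 complex and catalysis (14 of 20) or exon junction and export (15 of 19), and edgeR at an unadjusted p under 0.05, DESeq2 and limma also gave 0 lower there. Under library totals 1 gene each was called lower in the Prp19 and exon junction groups, with 6 called higher in each. Under library totals 48 of the 118 were called higher and 20 lower, where 18.1% and 46.4% of all tested genes were.

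Genes were called in both directions in the groups of the SMN complex, of the kinases of SR proteins and of other regulators. Of 11 tested genes of the SMN complex, which assembles Sm rings on snRNA, and of the minor spliceosome, 5 were called lower and 2 higher, with a median of -0.45, where 31.8% of all tested genes were called lower and 31.0% higher. The pICln gene clns1a, which holds Sm proteins before assembly, went from 15.9 ± 1.71 CPM (SD, n = 3) to 6.06 ± 0.370 CPM (SD, n = 2) and fell by 1.37 on the log2 scale (edgeR adjusted p = 1.35e-05). The SMN partners gemin5, gemin6 and gemin8 fell by 0.81, 1.60 and 0.96, and the U11/U12 gene pdcd7 by 1.15. The gemin6 value is imprecise (SE 0.52), from low levels of 4.71 CPM at the MBT and 1.52 CPM post-MBT. The methyltransferase gene prmt5 rose by 0.43 and the U11/U12 gene rnpc3 by 1.83. The smn1 gene had no call, at -0.45 ± 0.32. Under library totals 7 of the 11 genes were called lower and 1 higher, where 46.4% and 18.1% of all tested genes were. DESeq2 called 4 lower and 2 higher, against 17.2% and 20.3% of the genes it tested. The kinases of SR proteins had 2 higher and 2 lower of 8, with a median of -0.11, where 31.0% and 31.8% of all tested genes were. With library totals 5 of them were lower, where 46.4% of all tested genes were. The other regulators had 25 higher and 2 lower of 33, with a median of 0.83, and 20 higher and 6 lower under library totals. Outside the SMN group the regulators called lower with the smallest p included mbnl1, a muscleblind gene, at -1.80, and the kinase gene dyrk1ab, at -1.08.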

How the data were processed

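RNA-seq was made from deyolked zebrafish embryos at 2 stages, and the authors deposited raw counts per gene in one table, with 5 count columns. Per the file headers, alignments that overlap a gene by at least 1 base were counted on RefGene models of the D_rerio_Sep_2014 build. Novoalign 2.8 and DESeq2 appear, with no role given, in the submitters' processing notes. Count columns carry the stage and an index from 0, with no stated match to the replicate numbers of the labels, so libraries are lettered in column order. Per the file headers, the authors' deposited log2 ratios are of 4 hpf over 5.3 hpf, and their deposited score is -10 times the log10 of an adjusted p. Pairs of libraries of a stage differed by more than sampling noise, with chi-square over its degrees of freedom between 1.27 and 1.92. The deposited regularised log and FPKM columns (10) were not used.

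Counts were filtered with filterByExpr (minimum 10), scaled by TMM and tested with edgeR 4.0.16 (robust quasi-likelihood, R 4.3.3) across all 12007 genes kept, with Benjamini-Hochberg adjustment and a threshold of 0.05. The procedure was tested on simulated data. CPM are counts over the TMM-scaled size of the tested genes, and CPM per kilobase divides them by the deposited exonic length. The SE of a log2 fold change is its absolute value divided by the square root of the F statistic of the test. It is less reliable for genes with few counts. Genes were classed by hand from known roles, and the values of some genes are not reported here. Those named are, per class, up to 5 called genes with the smallest adjusted p in each direction, both copies of each pair, the 3 highest per kilobase, the 3 highest exon scores, all under the filter and, of the wider list, 4 in each direction; others were named after their values were seen. The members and lists were chosen with earlier results of these data known. Alternatives were other scalings (library totals, RLE, upper quartile), no filter, DESeq2 1.42.0, limma 3.58.1, an offset for exonic length, mitochondrial genes left out, and each library left out.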

Additional observations from a re-analysis of the deposited data

How the results depend on the processing

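Under 13 alternatives, 54 of the 83 called splicing genes kept call and direction throughout: 51 higher (14 snRNP core, 4 other spliceosome, 13 SR, 20 hnRNP) and 3 lower. Library totals changed most. Over all genes 2173 were then called higher. Of the splicing genes 51 were higher and 8 lower with a median of 0.45; higher calls were 14 in the snRNP core (median 0.31) and 4 in other spliceosome (1 lower, median 0.29). The SR median was 0.66, the hnRNP median 0.60 (1 lower, hnrnpc), and the outside LSm genes had 0 higher and a median of -0.92. In the wider list 48 were higher and 20 lower. Ratios of summed levels were 1.501 for all members, 1.40 for snRNP core, 1.27 for other spliceosome, 1.53 for SR, 1.66 for hnRNP and 0.749 for the outside LSm genes. The median of all genes was 0.0036 with upper-quartile factors and 0.013 with the length offset, where that of splicing genes was 0.90 and 0.92 and that of SR genes 1.12 and 1.17. DESeq2 called 2539 genes lower over the table and 0 in the snRNP core. Signs turned under library totals for lsm14aa (-0.15), sf3b5 (-0.026), snrpb (-0.16), prpf4 (-0.12) and snrnp27 (-0.22), and under the length offset for sf3b5 (-0.080) and snrnp27 (-0.028). With one library left out, sf3b5 ranged from -0.12 to 0.74, snrnp27 from -0.085 to 0.41 (both lowest without post-MBT A) and snrnp35 from -0.69 to 0.28 (highest without post-MBT B). The cause was not tested.

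With one library left out, 71 to 77 splicing genes were called higher and 4 to 6 lower (median 0.83 to 0.88). The ranges by class were 23 to 28 higher and 0 to 1 lower for snRNP core (median 0.66 to 0.83), 8 to 9 higher for other spliceosome (0.64 to 0.83), 16 for SR (0.97 to 1.09), 22 higher and 0 to 1 lower for hnRNP (1.01 to 1.09), and 1 to 2 higher and 3 to 5 lower for outside LSm genes (-0.69 to -0.35). In the wider list 74 to 81 were higher and 6 to 10 lower. A lone post-MBT library is then assumed to vary like the MBT group. The difference in log2 ratio of srsf1a over srsf1b was 0.46, and 0.10 without post-MBT A.

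No paired analysis was possible because the index of the count columns has no stated match to the replicate numbers of the labels. Depth limits genes with few counts, such as the Sm and LSm ring genes.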
